A study of Mus musculus with 8 samples.

Results

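The miRNAs miR-28a, miR-151 and miR-708 are a small group whose hairpins derive from LINE2 elements, old transposons that left inverted copies in mammalian genomes. They were followed here as small RNAs bound to the RNA-induced silencing complex (R-sRNAs) in mouse brain. The members were all reads that carried 1 of 6 mature names, the 5p and 3p arm of each hairpin (mmu-miR-28a-5p, mmu-miR-28a-3p, mmu-miR-151-5p, mmu-miR-151-3p, mmu-miR-708-5p and mmu-miR-708-3p, written below without the prefix). They made up 6 of 895 miRNA names and 318 of 47204 read sequences. No other miRNA name had a main read with the seed of a member, and no reads were named miR-28b or miR-28c. Cortex and hippocampus were combined into 1 RNA sample from each of 8 female mice of a mixed C57BL/6J and SJL background that were 6 or 8 months old by the study's methods, with the age of each library not given in the labels, though a passage of its results gives 6 months for this comparison. All 8 carried the 5XFAD transgene, which is driven in neurons by the Thy1 promoter and leads to amyloid plaques. Of these, 4 were 5XFADtg Rubicon+/- (het), with 1 intact copy of the autophagy gene Rubicon, and 4 were 5XFADtg Rubicon-/- (ko), a knockout of the whole animal. The labels list 4 het libraries, while a passage of the study's text speaks of fewer het mice, and all 4 are used here. The het mice are the control and are not wild type, and no mice without the transgene enter this comparison. Argonaute proteins were pulled down with a GW182 peptide, and the small RNAs they held were sequenced.

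A hairpin yields a guide strand from its 5′ (5p) or 3′ (3p) arm. The loaded arm binds mRNAs mainly through its seed, counted here as the 6mer at positions 2 to 7 from the 5′ end, so a shift of the 5′ end by 1 base gives another seed and another set of targets. miR-151 lies within the gene of focal adhesion kinase and is known for its role in cell migration. miR-28 is known as a brake on growth in B cells, and miR-708 is known to rise together with its host gene, Tenm4, under stress of the endoplasmic reticulum. Certain 6mer seeds are toxic to cells because their targets include genes required for survival, in a form of death named DISE (Death Induced by Survival gene Elimination).

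The most abundant read of each member shows how the group is related. It is printed 5′ to 3′ with U for T and with bases 2 to 8 in capitals.
miR-28a-5p: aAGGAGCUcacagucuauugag
miR-708-5p: aAGGAGCUuacaaucuagcugg
miR-151-5p: uCGAGGAGcucacagucuagu
miR-28a-3p: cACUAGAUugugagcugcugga
miR-708-3p: cAACUAGAcugugagcuucu
miR-151-3p: cUAGACUGaggcuccuugagg
miR-28a-5p and miR-708-5p began with the same 8 bases, AAGGAGCU, and so had 1 seed in common, AGGAGC. miR-151-5p held the same stretch further in. Its longest run in common with miR-28a-5p was the 16 bases AGGAGCUCACAGUCUA, which start at position 2 of miR-28a-5p and at position 4 of miR-151-5p. A miR-151-5p read that starts 2 bases later therefore carries the seed of the other 5p arms. Of the 3p arms, miR-28a-3p and miR-151-3p had 5 bases in common, CUAGA, and miR-28a-3p and miR-708-3p had 8, UGUGAGCU, which start at positions 9 and 10. The 8 bases CUAGACUG began miR-151-3p and stood at position 4 of miR-708-3p. A miR-708-3p read that starts 1 base later has the seed of miR-28a-3p, ACUAGA. For 4 of the 6 members RefSeq (GRCm38.p6) held a mature sequence. The main reads of both miR-28a arms were identical to it, and those of both miR-708 arms ended earlier than the 23 and 22 nt RefSeq entries. miR-151-5p and miR-151-3p had no entry.

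The hairpins are given from GENCODE M21 (GRCm38), with the 2 main reads of each in capitals to show where the arms are cut.
miR-28a: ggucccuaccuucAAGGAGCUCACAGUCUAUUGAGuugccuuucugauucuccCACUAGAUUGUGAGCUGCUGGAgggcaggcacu
miR-151: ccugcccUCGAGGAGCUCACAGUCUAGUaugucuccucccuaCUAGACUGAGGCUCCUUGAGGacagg
miR-708: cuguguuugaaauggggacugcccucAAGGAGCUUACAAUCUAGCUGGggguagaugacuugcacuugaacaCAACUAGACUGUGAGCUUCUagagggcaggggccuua
All 3 lie in introns of protein-coding genes on the strand of the host. miR-28a is at chr16:24827855-24827940 on the plus strand within Lpp, which codes for a protein of focal adhesions. miR-151 is at chr15:73254815-73254882 on the minus strand within Ptk2, the gene of focal adhesion kinase, and also lies opposite the antisense gene 1700085D07Rik, outside its exons. miR-708 is at chr7:96249424-96249532 on the plus strand within Tenm4.

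Library depth ran from 509839 to 19878054 reads, and the 2 libraries over 5000000 reads were both ko (replicates 1 and 2), so in them depth and genotype cannot be told apart. A level of 3 reads was taken as the floor of a library, although fewer reads can also occur. It was 5.79 CPM (reads per 1000000 reads) for the shallowest library, het replicate 1, and 0.151 CPM for the deepest, ko replicate 2. The 3 neuronal miRNAs used to check the tissue summed to between 145125 and 247446 CPM in every library. A list of 7 epithelial miRNAs, all in the table, summed to between 2249 and 8555 CPM in het and to between 226 and 1794 CPM in ko. A list of 3 miRNAs of sensory epithelium summed to between 390 and 1338 CPM in het and to between 26.5 and 129 CPM in ko. Both lists thus differed between the genotypes without overlap, and their part in the results below was not tested.

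The 6 members together held 4605 ± 759 CPM (mean ± SD, n = 8), or 0.480% of all miRNA reads. Their order was the same in 8 of 8 libraries. miR-151-5p was highest with 2518 ± 482 CPM and rank 61 of the 895 miRNA names, followed by miR-708-5p with 1374 ± 512 CPM and rank 83. miR-151-3p had 428 ± 55.9 CPM, miR-708-3p 163 ± 53.2 CPM, miR-28a-5p 92.8 ± 34.1 CPM and miR-28a-3p 29.5 ± 13.6 CPM. The SD ranges of miR-708-3p and miR-28a-5p overlapped, as those of no other neighbours in this order did. The members differed in how steady they were. miR-151-3p varied 1.38-fold between the lowest and the highest library and miR-151-5p 1.74-fold, while miR-708-5p varied 3.30-fold, miR-28a-5p 3.53-fold and miR-28a-3p 4.28-fold. The last rests on few reads, between 25 in ko replicate 4 and 549 in ko replicate 2.

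To ask whether loss of the second Rubicon copy changed these guides, limma was run on log2(CPM + 1) of the 463 miRNAs that averaged 10 CPM or more, both genotypes in one fit. A fold change on this scale understates the change of low miRNAs. Of the 6 members, 0 were called at an adjusted p under 0.05, against 1.3% (6 of 463) of all miRNAs tested. At an unadjusted p under 0.05 there was 1 member, miR-708-3p, against 7.34% of all miRNAs. edgeR and DESeq2 on the recovered reads also called 0 members, and neither gave a member with an unadjusted p under 0.05. The genotypes overlapped for all 6 members, while 3.46% of all miRNAs tested had no overlap. In such bulk RNA, fewer cells of a type and less RNA per cell cannot be told apart.

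miR-708-5p, the main guide of its hairpin, had 1207, 1709.8, 1517 and 2172 CPM in het replicates 1 to 4 and 795, 1761, 1173 and 657 CPM in ko replicates 1 to 4. In ko, 3 libraries were below every het library, and replicate 2, the deepest, was above 3 of the 4 het libraries. The log2 change from het to ko was -0.66 with an SE of 0.33 (95% interval -1.38 to 0.05, adjusted p by limma = 0.678). With each library left out it ran from -0.93 without ko replicate 2 (limma unadjusted p = 0.0118, adjusted p = 0.208) to -0.45 without ko replicate 4 (limma unadjusted p = 0.192).

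miR-708-3p, the other arm of this hairpin, had 268, 186, 153 and 197 CPM in het and 104, 129, 115 and 154 CPM in ko. The groups overlapped only through het replicate 3 and ko replicate 4. The log2 change from het to ko was -0.66 with an SE of 0.29 (95% interval -1.28 to -0.04), with an unadjusted limma p of 0.0386 and an adjusted p of 0.593. Both arms of miR-708 had a log2 change of this size, and neither passed the test. With each library centred on its median the change was -0.44 for each arm, with an unadjusted limma p of 0.201 for miR-708-5p and 0.148 for miR-708-3p.

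miR-28a-5p had 110.0, 149, 73.4 and 92.7 CPM in het and 58.1, 116, 101 and 42.1 CPM in ko, with 2 ko libraries inside the het range and 2 below it. Its log2 change from het to ko was -0.48 with an SE of 0.38 (95% interval -1.30 to 0.34, adjusted p by limma = 0.919), and -0.26 with median centring. miR-28a-3p had 59.8, 25.4, 14.0 and 29.3 CPM in het and 21.8, 27.6, 33.9 and 24.5 CPM in ko. All ko libraries lay inside the range of het, which het replicate 1 stretched upward. The log2 change from het to ko was -0.08 with an SE of 0.44 (adjusted p by limma = 0.975), and 0.27 without het replicate 1.

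miR-151-5p, the most abundant of the group, had 2425, 1969.8, 2565 and 2369 CPM in het and 2819, 3121, 3079 and 1793 CPM in ko. In ko, 3 libraries were above every het library and replicate 4 was below every one. The log2 change from het to ko was 0.19 with an SE of 0.26 (95% interval -0.37 to 0.74, adjusted p by limma = 0.975). It was 0.37 without ko replicate 4, 0.11 without ko replicate 2 and 0.41 with each library centred on its median. miR-151-3p had 415, 477, 478 and 378 CPM in het and 458, 359, 495 and 364 CPM in ko, with the narrowest range of any member as a fold (1.38). Its log2 change from het to ko was -0.07 with an SE of 0.23 (adjusted p by limma = 0.975), and its sign turned to 0.15 when each library was centred on its median. That centring raised the median change of all miRNAs by 0.22.

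**Figure D1:**
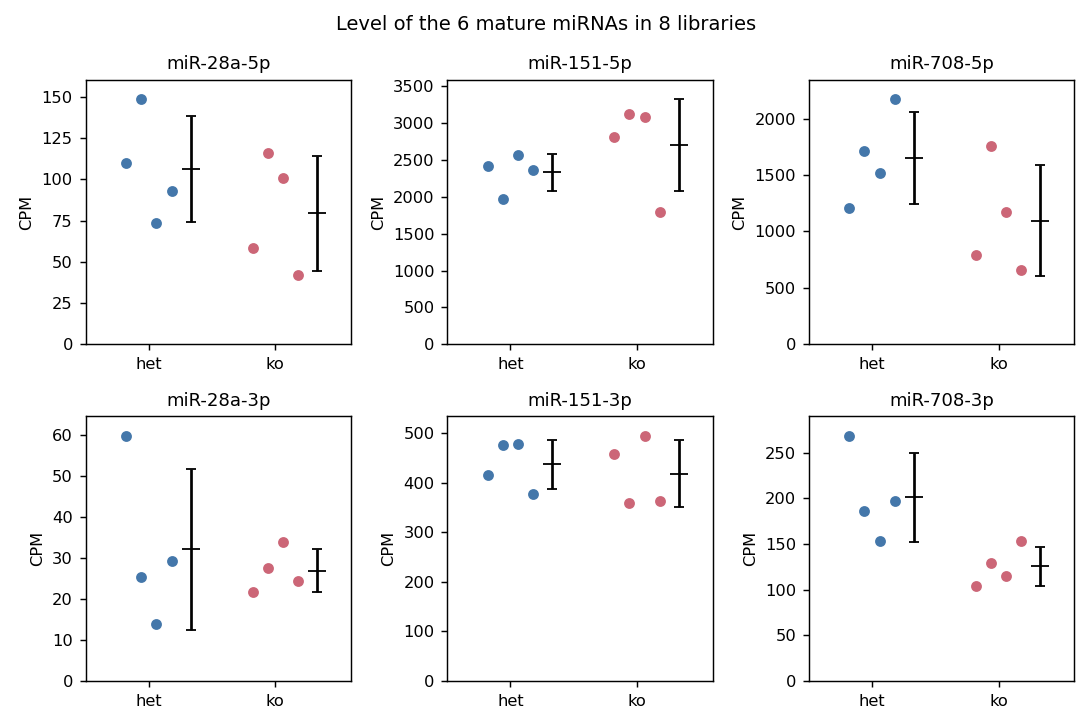
Level (CPM) of each mature miRNA in the 4 het (blue) and 4 ko (red) libraries, replicates 1 to 4 from left to right, with the mean and SD in black. The genotypes overlap for all 6, and ko replicate 2 lies at 1761 CPM for miR-708-5p, above the 3 other ko libraries.

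Across the 8 libraries the members did not move as one. On the log2(CPM + 1) scale the Pearson r of miR-28a-5p with miR-708-5p, which share a seed but no host gene, was 0.77. The 2 arms of a hairpin were less alike, with r = 0.40 for miR-28a, 0.20 for miR-151 and 0.35 for miR-708. The lowest value was -0.51, between miR-151-5p and miR-708-3p. These are descriptions over 8 points that share library size and scaling. Of the 463 miRNAs, those most like miR-28a-5p were miR-22-3p (r = 0.91), miR-369-5p (0.91) and miR-467a-5p (0.90), where the median r with all miRNAs was 0.18. miR-22-3p was also among those most like miR-708-5p (0.87), after miR-125b-2-3p (0.94) and miR-330-5p (0.92). For miR-151-5p they were miR-30b-5p (0.85), miR-582-3p (0.83) and miR-219a-2-3p (0.81).

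Single reads were tested in the same way. Of the 318 member reads, 38 averaged 10 CPM or more and were tested among 3299 such reads. At an adjusted p under 0.05, 0 member reads were called, against 0.485% of all reads. At an unadjusted p under 0.05 there were 7, all lower in ko, against 5.3% of all reads. Of these 7, 4 belonged to miR-708-5p (of 13 tested) and 3 to miR-708-3p (of 5 tested). At an unadjusted p under 0.05 edgeR and DESeq2 gave 2 member reads each, and both called 0. The smallest p among reads lower in ko was for a miR-708-5p read of 22 nt.
miR-708-5p, smallest p: AAGGAGCTTACAATCTAGCTGT
Its level was 39.7 ± 10.7 CPM in het but 16.4 ± 8.43 CPM in ko (mean ± SD, n = 4 each), and the log2 change was -1.31 with an SE of 0.42 (adjusted p by limma = 0.603). The main miR-708-5p read averaged 619 ± 123 CPM in het libraries and 391 ± 149 CPM in ko libraries. Among reads higher in ko, the smallest p was for a miR-151-5p read with 2 bases more than the main read. It averaged 100.2 ± 39.8 CPM over het and 153 ± 44.5 CPM over ko (log2 change 0.68 with an SE of 0.40, adjusted p by limma = 0.973).
miR-151-5p, smallest p: TCGAGGAGCTCACAGTCTAGTAA

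The choice of arm was compared next, as the share of 5p reads among the 5p and 3p reads of a hairpin. The 5p arm was the main guide of all 3 hairpins in all libraries. For miR-28a the 5p arm gave 64.8%, 85.4%, 84.0% and 76.0% of reads in het and 72.8%, 80.8%, 74.8% and 63.2% in ko. For miR-151 it gave 85.4%, 80.5%, 84.3% and 86.2% in het and 86.0%, 89.7%, 86.2% and 83.1% in ko. For miR-708 it gave 81.8%, 90.2%, 90.8% and 91.7% in het and 88.4%, 93.2%, 91.1% and 81.0% in ko. The genotypes overlapped for each hairpin. The differences of ko from het were -4.62, 2.15 and -0.215 percentage points, with exact two-sided permutation p = 0.429, 0.371 and 0.914 (n = 4 each). With each library left out in turn, the difference of miR-28a ran from -8.88 (without het replicate 1) to -1.39 (without ko replicate 4) and that of miR-151 from 0.9505 (without het replicate 2) to 3.19 (without ko replicate 4). That of miR-708 changed sign, from -2.49 (without het replicate 1) to 2.24 (without ko replicate 4). The smallest p that 4 against 4 libraries can give is 0.0286. The 2 shallowest libraries, het replicate 1 and ko replicate 4, had the lowest 5p share of miR-28a and of miR-708 in their genotype. Depth moved with these values, and its part was not tested. For miR-28a the 95% Wilson interval of ko replicate 4 ran from 51.4% to 73.7%, over 68 reads. Intervals and floors here cover counting error only, as the reads carried no molecular identifiers.

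**Figure D2:**
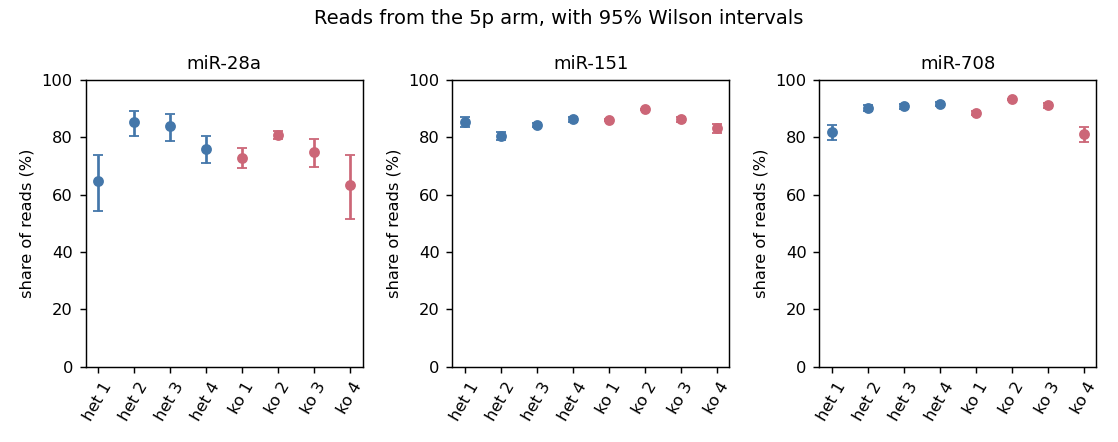
Share (%) of the reads of each hairpin that came from its 5p arm in the 4 het (blue) and 4 ko (red) libraries, with 95% Wilson intervals. The shares lie between 63.2% and 93.2%, and the genotypes overlap for each hairpin.

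The seed is set by the 5′ end and can also be altered by a base change, and members differed in how fixed it was. The share of reads with another seed than the main one was lowest for miR-151-5p, with 2.07% ± 0.369 (n = 8), and for miR-28a-5p, with 2.21% ± 2.17. It was 3.70% ± 1.13 for miR-708-5p, 5.04% ± 1.57 for miR-151-3p, 10.2% ± 11.8 for miR-28a-3p and 15.9% ± 3.21 for miR-708-3p. This share also counts base changes in the seed at the main start, such as UGGACU in miR-151-3p (1.94% of reads). By start alone miR-151-3p and miR-708-5p were alike, with 96.9% and 96.8% of reads at the main start. Only reads with a mature name are counted. In miR-708-3p a single start, 1 base later than the main one, held 13.1% ± 1.78 of reads, and the start 2 bases later held 2.43%. For miR-28a-3p the start 1 base later held 7.04% ± 6.12, with 0 of 31 reads at another seed in het replicate 1, which allows a share of up to 9.68%. Shifted reads of 4 arms are given as examples (bases 2 to 8 in capitals). Those of miR-151-5p stand for 0.866% (start +1) and 0.135% (start +2) of its reads. Starts with larger shares are not all listed, such as 1 base later in miR-151-3p (1.45%).
miR-708-3p, start +1: aACUAGACugugagcuucuaga
miR-708-5p, start +1: aGGAGCUUacaaucuagcugg
miR-28a-3p, start +1: aCUAGAUUgugagcugcuggag
miR-151-5p, start +1: cGAGGAGCucacagucuagu
miR-151-5p, start +2: gAGGAGCUcacagucuagu
Between genotypes these shares did not pass the test for any of the 6 members (exact permutation p from 0.343 to 0.83, n = 4 each). The largest shift by size was in miR-28a-3p, from 13.0% ± 16.0 in het to 7.36% ± 6.79 in ko, and het replicate 3, with 13 of 36 reads, set the het mean. Without that replicate the difference was 2.05 percentage points in the other direction.

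**Figure D3:**
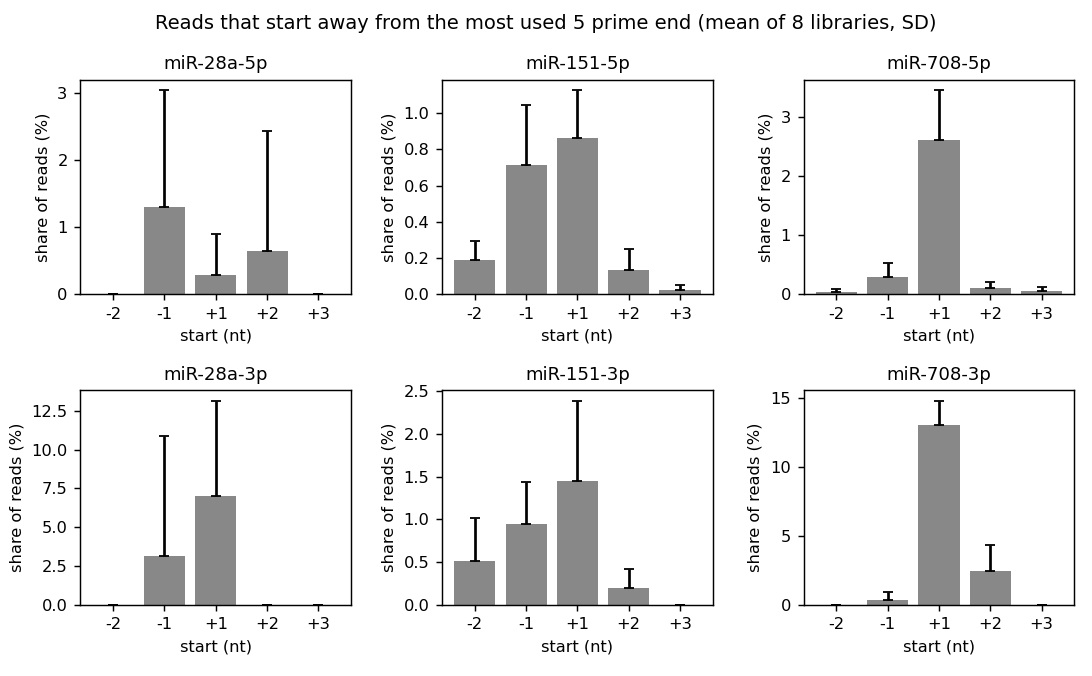
Mean share (%) of the reads of each member that start 1 or 2 nt before, or 1 to 3 nt after, the most used 5′ end, over 8 libraries, with SD (upward only). The start 1 nt later holds 13.1% of miR-708-3p reads and 2.61% of miR-708-5p reads.

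Because of these offsets, members met at common seeds. The seed ACUAGA was carried for 52.1% by miR-28a-3p, for 41.4% by miR-708-3p reads that start 1 base later and for 4.29% by miR-151-3p reads that start earlier. These are shares of the mean level. Over single libraries they ran from 26.7% to 62.5% for miR-28a-3p and from 27.4% to 65.1% for miR-708-3p, so neither was the main carrier throughout. Of the miR-708-3p reads, 14.1% ± 0.870 in het and 12.0% ± 1.87 in ko carried it (exact permutation p = 0.0571, n = 4 each, measured after the reads had been seen). Of 14 alternatives for this share, 1 passed, without ko replicate 2 (-2.80 percentage points, exact permutation p = 0.0286), and the others had an exact permutation p from 0.0571 to 0.25. The seed AGGAGC came for 92.7% from miR-708-5p and for 6.33% from miR-28a-5p, so the level of this seed was mainly that of miR-708-5p. It averaged 1713 ± 389 CPM over het and 1143 ± 513 CPM over ko, and ranked 69 of 3427 seeds. The log2 change from het to ko was -0.66 with an SE of 0.32 (adjusted p by limma = 0.849), where 0.303% of the 990 seeds tested were called.

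A small part of the seed AGGAGC, 0.253%, came from miR-151-5p reads that start 2 bases later. These reads were 0 of 1256 reads in het replicate 1, which at a floor of 3 reads allows a share of up to 0.239%, and 0 of 2864 reads in het replicate 2, which allows up to 0.105%. Their share was 0.0757% (5 of 6606 reads) in het replicate 3 and 0.0634% (4 of 6310 reads) in het replicate 4. In ko it was 0.311% (69 of 22154 reads), 0.188% (117 of 62152), 0.223% (16 of 7167) and 0.219% (4 of 1830) in replicates 1 to 4. The observed shares of the ko libraries were above those of the het libraries, but at its depth het replicate 1 does not exclude a share above those of ko replicates 2, 3 and 4. The Wilson interval of ko replicate 4, the thinnest ko library, ran from 0.0850% to 0.561%. The means were 0.0348% ± 0.0405 in het and 0.235% ± 0.0530 in ko, a difference of 0.201 percentage points (SD, n = 4 each). The table keeps sequences by their reads over all libraries, of which the deepest are ko. The most abundant of the 3 sequences with this start had 0.388 CPM in het replicate 3 and 0 in the other het libraries, so it passed this removal of rare reads through ko. The filter can thus favour ko. The permutation test planned for this share makes no allowance for that, so its p is not given, and the shares stand as a description.

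The share that starts 1 base later did not follow. It was 0.959% in het and 0.773% in ko for miR-151-5p. Among 215 miRNAs that averaged 100 CPM or more and had any read that starts 2 bases later than their main read, this share was higher in all ko than in all het libraries for 3.26% (7 of 215), and lower in all ko libraries for 0. By the size of the difference in percentage points miR-151-5p ranked 21 of the 215. The removal of rare reads bears on these counts in the same way, so nothing is read from their direction.

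**Figure D4:**
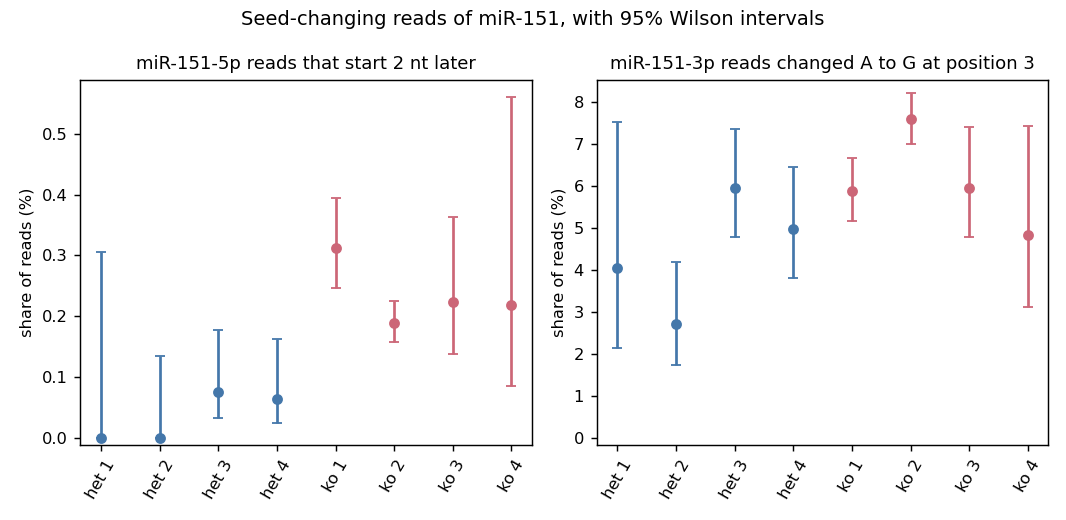
Left, share (%) of miR-151-5p reads that start 2 nt later and so carry the seed AGGAGC. Right, share (%) of miR-151-3p reads with A3G. Points are the 4 het (blue) and 4 ko (red) libraries with 95% Wilson intervals. On the left the observed shares are 0.188% to 0.311% in ko and 0 to 0.0757% in het, where the interval of het replicate 1 reaches 0.305%, and on the right the genotypes overlap.

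Base changes inside the reads were counted against the hairpin, with positions from 1 at the 5′ end of the main read and reads of the hairpin without a mature name included. For miR-28a there were 0 such sequences without a name, against 78 for miR-151 and 41 for miR-708. Its arms were thus searched by named reads only, and a lack of changes there is not read as a result. Of 74 changes found, all in the arms of miR-151 and miR-708, 1 exceeded 1% of the reads of its arm. This was A3G in miR-151-3p, which lies in the seed and turns UAGACU into UGGACU. The precursor of miR-151 is known as a target of A-to-I editing by ADAR enzymes in brain, and inosine is read as G. Whether these reads came from edited transcripts was not tested. The read is given beside the unchanged one above.
miR-151-3p, A3G: cUGGACUGaggcuccuugagg
A3G was present in 1039 of 16146 reads and in 19 sequences, and 59.4% of these reads had no mature name in the table, so a count by name alone would miss them. The share was 4.05%, 2.71%, 5.94% and 4.97% in het and 5.87%, 7.59%, 5.96% and 4.83% in ko. Every library had it, and the genotypes overlapped. The means were 4.42% ± 1.38 in het and 6.06% ± 1.14 in ko (exact permutation p = 0.171, n = 4 each). Reads in all 8 libraries were found for 7 changes, A3G among them. The next of these by mean was A2G in miR-708-5p, with 0.533% and a range of 0.120% to 0.802%. G10A in miR-151-3p and A6G in miR-708-3p had means of 0.788% and 0.550%, but were less even. G10A ran from 0 to 4.29% over libraries and was 0.421% of the pooled reads, with reads in 6 libraries, and A6G had reads in 3 libraries and ran from 0 to 2.13%.

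At the 3′ end, tails that depart from the hairpin were most frequent on the 3p arms of miR-151 and miR-28a. They were on 31.7% of miR-151-3p reads in het and 33.8% in ko, and on 26.1% of miR-28a-3p reads in het and 37.6% in ko. They were on 12.7% of miR-708-5p reads in het and 15.6% in ko, and on 6.25% of miR-151-5p reads in het and 8.41% in ko. For miR-708-3p the shares were 5.73% in het and 8.08% in ko, and for miR-28a-5p 12.3% and 12.0%. A single A was the most frequent tail of miR-151-5p (5.53% of reads), miR-28a-5p (9.50%) and miR-28a-3p (20.5%), and a single U that of miR-151-3p (12.2%) and miR-708-3p (2.68%). An added base that matches the hairpin is not counted as a tail. The hairpin continues with A after the main ends of both miR-151 arms and of miR-708-3p, so an A added there goes unseen. Tail shares and tail bases are therefore not on equal terms between arms. For 0 of the 6 members did the share pass the test (adjusted exact permutation p from 0.343 to 0.886, n = 4 each), at an unadjusted p of 0.0571 for miR-28a-3p. The mean length of miR-151-5p reads was 21.24, 21.21, 21.24 and 21.22 nt in het and 21.26, 21.26, 21.29 and 21.35 nt in ko. The difference was 0.0601 nt, with all ko libraries above all het libraries (exact permutation p = 0.0286, the smallest possible, n = 4 each). Adjusted over the 6 members p was 0.171. With only reads that match the hairpin, the difference was 0.0240 nt and the exact permutation p was 0.143. Among 278 miRNAs of at least 100 CPM, mean length was higher in all ko libraries for 1.44%. For the other 5 members the lengths of the genotypes overlapped.

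The deposited table gives each seed a viability score, which averages, over 3 mouse lines in culture, the viability left by an siRNA with that seed in percent of control cells (3.3 to 108.5 in the table). It was not measured in these mice. The main seeds of the group lie far apart on this scale. The seed AGGAGC of miR-28a-5p and miR-708-5p had a score of 18, with only 5.28% of the 3427 seeds lower, and is thus among the more toxic ones. The main seed of miR-151-3p had a score of 93.9, with 99.0% of seeds lower. Between these lay CGAGGA of miR-151-5p with 66.8, AACUAG of miR-708-3p with 75.9 and ACUAGA of miR-28a-3p with 78. A shift or a base change moved a read along this scale. miR-708-5p that starts 1 base later had GGAGCU, with a score of 7.3. miR-151-5p fell to 33.8 with a start 1 base later and to 18 with a start 2 bases later. In the other direction, a start 1 base earlier gave miR-28a-5p and miR-708-5p the seed AAGGAG, with a score of 67.6 in place of 18. miR-151-3p fell from 93.9 to 24 with A3G.

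The mean score of each hairpin was weighted by reads with a mature name, which leaves out 59.4% of the A3G reads of miR-151-3p. This score was compared between genotypes. For miR-28a it was 31.8 ± 6.01 in het and 34.7 ± 4.21 in ko, and for miR-708 24.5 ± 2.62 and 24.8 ± 3.08. For miR-151 it was 70.5 ± 0.511 and 69.9 ± 0.816. None of the 3 passed, with an exact permutation p between 0.286 and 0.83 (n = 4 each).

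**Figure D5:**
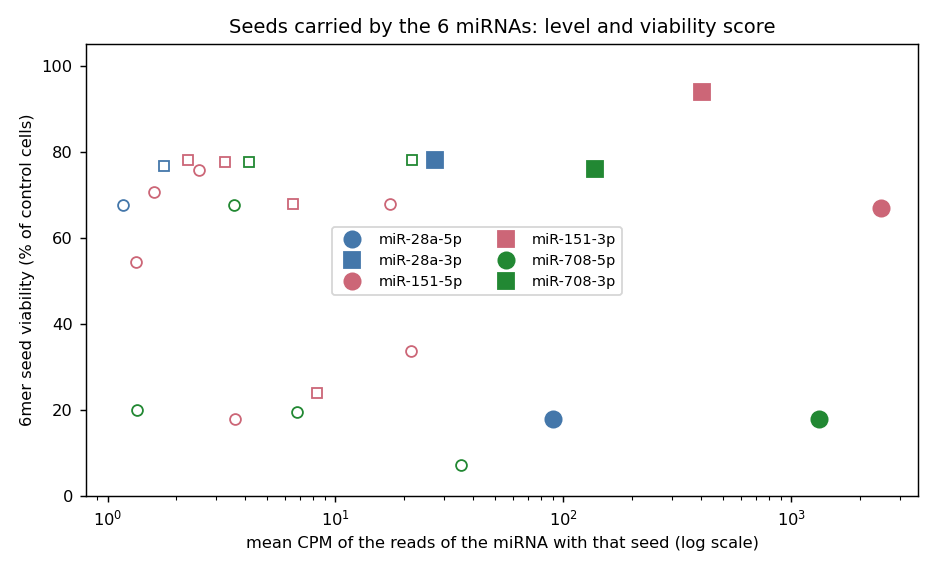
Viability score (%) of each seed carried by a member with at least 1 CPM, against the mean CPM of its reads with that seed (log scale). Filled symbols are main seeds and open symbols are seeds of shifted or changed reads, with circles for 5p and squares for 3p arms. The main seeds of miR-28a-5p and miR-708-5p lie at 18 and that of miR-151-3p at 93.9.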

How the data were processed

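Small RNAs pulled down with Argonaute were sequenced from 4 het and 4 ko brains. The deposited values are CPM, made with the authors' SPOROS pipeline, which lists each read sequence with its name and leaves out rare reads (those kept had 8 or more reads in all). Per the labels Trim Galore was used for trimming. By the study's methods, reads were matched to lists of small RNAs with BLAST. Versions and genome build are not given in the sources used here. Each seed has a deposited viability score from the authors' earlier screen.

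All CPM values were whole multiples of 1 read within 0.1 read (100.0%), which gave the depth. CPM was summed by trimmed name, read or seed. For features that averaged 10 CPM or more, log2(CPM + 1) was fitted with limma 3.58.1 (R 4.3.3, robust eBayes with a trend), with Benjamini-Hochberg adjustment over all features. edgeR 4.0.16 and DESeq2 1.42.0 on the recovered reads were alternatives. Shares, lengths and scores were compared by exact two-sided permutation over 70 splits, adjusted within each measure. Reads were aligned to GENCODE M21 hairpins without gaps, with the last 4 bases free to differ as tails. Single shares have 95% Wilson intervals, and 3 reads set the floor. For the shifted starts of other miRNAs, 10 bases from the shifted start of the main read had to match. The fits were tested on simulated reads. With no change set, limma, edgeR and DESeq2 each called 0. Of reads set to a log2 change of 2, limma recovered 59.5%, edgeR 65.5% and DESeq2 76.5%. Of their calls 5.56%, 5.07% and 15% were false. Changes as small as those of the members were not simulated. Python 3.11.15 was used for the rest.

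Members and lists were chosen with earlier results of these data known. Named were the members, their main and shifted reads, the reads with the smallest p in each direction, and the 3 miRNAs most like each main arm. Base changes, tails and the share of miR-708-3p reads with the seed of miR-28a-3p were added after the data were seen, as was the alternative that kept only sequences with reads in at least 4 libraries. Each library is a different mouse by its label.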

Additional observations from a re-analysis of the deposited data

Results flagged for a closer look

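A library was singled out where its distance to the nearest library of its genotype, relative to the range of the 4 libraries, passed Dixon's 95% critical value. This was examined in 68 groups of 4 libraries, and 4 stood apart, where chance alone gives about 1 in 20, or 3.4. The 5p share of miR-708 in het replicate 1 was 81.8%, against 90.2% for the next het library, and the mean seed viability of miR-708 reads in the same library was 28.4, against 23.6. Both come from the same reads, as the 3p arm has the higher score. The share of miR-151-5p reads with a 3′ tail was 3.63% in het replicate 2, against 6.96% for the next. The share of miR-151-3p reads with another seed than the main one was 2.43% in ko replicate 4, against 6.14% for the next.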

How the results depend on the processing

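Over 529 recomputed values, 492 kept their direction and their side of the threshold, and 0 members or member reads were called under any of the settings run (other pseudocounts, filters, centring, replicate block, edgeR, DESeq2, each library left out, the 2 deepest libraries left out). The direction of values near 0 was not stable. For miR-151-3p the log2 fold change turned to 0.15 with median centring, 0.060 with edgeR and 0.071 with DESeq2, and ran from -0.15 to 0.00037 with each library left out. For miR-28a-3p it turned to 0.14 with centring and 0.030 without the 2 deepest libraries, and ran from -0.41 to 0.27 with each library left out. Centring raised the median of all miRNAs by 0.22, edgeR by 0.15 and DESeq2 by 0.16. With each library left out, the fold change of miR-708-5p ran from -0.93 to -0.45, that of miR-708-3p from -0.78 to -0.51, that of miR-28a-5p from -0.70 to -0.22, that of miR-151-5p from 0.11 to 0.37 (0.018 without the 2 deepest libraries) and that of the seed AGGAGC from -0.92 to -0.44.

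With each library left out, the 5p share difference of miR-708 ran from -2.49 to 2.24 percentage points (0.00065 as log2 odds). Its viability difference ran from -1.16 to 1.57, that of miR-28a from 1.11 to 5.36 and that of miR-151 from -0.937 to -0.271. The difference in the share of other seeds ran from -1.38 to 0.316 percentage points for miR-28a-5p and from -9.99 to 2.05 for miR-28a-3p. For miR-28a-5p it was 0.38 as log2 odds and 0 with only sequences in at least 4 libraries. It was -0.418 for miR-151-3p without the 2 deepest libraries, and -0.00409 for miR-151-5p and -0.200 for miR-708-5p with only reads that match the hairpin. The length difference of miR-151-3p ran from -0.0109 to 0.0812 nt with each library left out, and that of miR-28a-5p was 0.00284 nt with only matching reads. The tail difference of miR-28a-5p ran from -2.58 to 1.35 percentage points and was 2.51 without the 2 deepest libraries. With each library left out, that of miR-151-3p ran from 0.634 to 4.41 and that of miR-708-5p from 1.12 to 4.88. For miR-151-5p it ran from 1.29 to 2.86, for miR-708-3p from 1.19 to 3.82 and for miR-28a-3p from 9.12 to 13.9. The cause of these changes was not tested. The difference in the share of miR-151-5p reads with the seed AGGAGC was 0.175 to 0.216 points with each library left out and 0.186 without the 2 deepest. All of these use sequences already kept, the most abundant of them through its ko reads, so they say nothing of the stability of this difference. For miR-708-3p reads with the seed of miR-28a-3p the difference ran from -2.80 to -1.37, and passed the test without ko replicate 2 (-2.80).

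Replicate numbers occur in both genotypes but belong to different mice. Deviations of same-numbered libraries correlated at 0.04, 0.29, -0.18 and 0.25. These values have no reference to be judged against, so whether the numbers pair the libraries was not tested. With the number as a replicate block, the difference in the miR-151-5p share with the seed AGGAGC was 0.201 points, 0 members were called, and the count of all miRNAs called rose from 6 to 10. For 1 of the 4 numbers the same-numbered library was the best match in the other genotype.

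Each genotype had 4 mice, and miR-28a-3p had 25 reads in its thinnest library. CPM are relative to the library, and the removal of rare sequences by their total over libraries favours those of the deepest ones.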
